A study of Mus musculus with 9 samples.

Results

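The 9 genes described here belong to the blood-brain barrier endothelium and were followed across postnatal exposure to perfluorooctane sulfonate (PFOS), a persistent fluorinated surfactant. They are the junction genes Cldn5, Ocln, Tjp1, Pecam1 and Cdh5 and the transporter genes Abcb1a, Abcg2, Slc2a1 and Mfsd2a. They were listed by name as endothelial junction and transporter genes, because PFOS has been reported to open tight junctions, a rule that uses no value of these samples, although earlier results of these data were known when it was set. All 9 are among the 23412 gene symbols of the table, and all 9 were among the 14336 symbols that were tested, those with at least 1 TPM (transcripts scaled for length and library) in at least 3 of the 9 samples. The samples are whole hippocampus from wild-type (WT) mice at postnatal day 21, measured by bulk RNA sequencing, in 3 groups of 3. Control mice carry the treatment label sham. PFOS P1-7 pups nursed from dams that were gavaged daily with PFOS at 1 mg/kg over postnatal days 1 to 7, and PFOS P8-14 pups from dams given the same dose over days 8 to 14. The question, per the series' design text, is which postnatal window of exposure is the sensitive one. Nothing in the labels ties a sample to a litter, a sex or a batch, or says that samples are separate animals, so p-values measure only the spread between these samples, which may be technical.

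The endothelial cells of brain capillaries are sealed to each other by tight junctions, in which claudin-5 and occludin span the membrane and zonula occludens proteins such as ZO-1 tie them to actin. Adherens junctions built on VE-cadherin lie alongside, and PECAM-1 joins the cells near the same contacts. Since little passes between the cells, glucose, lipids and amino acids enter through carriers, and efflux pumps return many foreign compounds to the blood. Endothelial cells are a small share of hippocampal tissue, and in bulk tissue fewer cells of a type and less RNA per cell cannot be told apart.

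Cldn5 and Ocln were the 2 of the 9 genes whose control and PFOS P1-7 samples did not overlap, in opposite directions, so the sequence just before each gene's start is shown. A promoter was found in RefSeq (GRCm38.p6) for 7 of the 9 genes. The 250 bases before the start are printed 5′ to 3′ on the gene's strand, with capitals marking the GC box, a short GC-rich element that Sp1-family factors bind (GGGCGG, searched on both strands). The Cldn5 window lies at chr16:18776597-18776846 (+ strand) and the Ocln window at chr13:100552719-100552968 (- strand).
Cldn5: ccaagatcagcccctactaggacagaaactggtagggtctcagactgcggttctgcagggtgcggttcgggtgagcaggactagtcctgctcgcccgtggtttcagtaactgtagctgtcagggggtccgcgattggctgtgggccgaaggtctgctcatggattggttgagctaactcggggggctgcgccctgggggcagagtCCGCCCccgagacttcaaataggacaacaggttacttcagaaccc
Ocln: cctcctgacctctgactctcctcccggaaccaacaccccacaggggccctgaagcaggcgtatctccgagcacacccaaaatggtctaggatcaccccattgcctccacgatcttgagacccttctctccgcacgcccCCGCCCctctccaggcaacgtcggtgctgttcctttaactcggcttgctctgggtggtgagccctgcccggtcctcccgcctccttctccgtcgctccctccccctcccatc
Each of these promoters held 1 GC box, and 32.7% of 32851 promoter windows of the same length held at least 1. A further 3 short motifs, of factor families that act in endothelium, were searched in the same way, and these 2 windows held none of them, so no motif match overlapped another. They were the ETS core (GGAAG, in 64.1% of all windows), a SOX motif (ACAAAG or ACAATG, 25.2%) and a FOX core (TAAACA, 12%). Tjp1 had 2 GC boxes and 1 ETS core, Slc2a1 had 2 GC boxes, and Mfsd2a had no match to any of the 4 motifs. Abcb1a had no GC box but 2 ETS cores, 1 SOX motif and 1 FOX core. Abcg2 has 3 starts in the table, with 0, 2 and 4 GC boxes, 1, 4 and 1 ETS cores and, at the first, 1 SOX motif. Ocln has a second start, which also held 1 GC box and none of the other motifs.

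Library differences of 2 kinds bear on the values below. Transthyretin (Ttr), which choroid plexus makes in abundance, reached 9446 to 11626 TPM in PFOS P1-7 replicates 1 and 3, in PFOS P8-14 replicates 1 and 2 and in 1 control (replicate 3), against 35.1 to 107.7 TPM elsewhere. In addition, gene levels in a library, taken as deviations from the mean of all libraries, followed how long the transcript is. Over 13457 genes this trend (Spearman's rho) was 0.19, -0.40 and -0.50 for controls 1 to 3, 0.12 to 0.46 for PFOS P1-7, and 0.16, -0.19 and 0.30 for PFOS P8-14. Short transcripts were thus relatively high in control replicates 2 and 3. The hippocampal markers Prox1 (dentate granule neurons) and Wfs1 (CA1 neurons) stood at 17.1 to 51.5 TPM and 122.2 to 232.9 TPM, and Slc17a7 (excitatory neurons) at 1302 to 1628 TPM. Sequencing depth cannot be read from TPM and is unknown.

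In control hippocampus the 9 genes spanned about an order of magnitude in TPM, a length-scaled level that allows a rough comparison between genes. Short transcripts were relatively high in control replicates 2 and 3, and the part of length in the order below was not tested. Cldn5 was highest at 116 ± 8.85 TPM (mean ± SD, n = 3), followed by Slc2a1 at 87.0 ± 5.56 TPM, and these 2 did not overlap. Mfsd2a (47.5 ± 11.9) and Tjp1 (32.9 ± 6.80) came next and overlapped each other. Pecam1 (13.8 ± 2.33), Abcb1a (13.8 ± 3.41) and Abcg2 (13.6 ± 2.40) overlapped one another. Ocln (10.86 ± 0.425) lay wholly below Abcg2 and overlapped Cdh5 (9.003 ± 2.07), the lowest. The order at the top was not the same in the exposed groups. In PFOS P1-7 the mean of Slc2a1 (95.1 ± 9.09 TPM) lay above that of Cldn5 (86.3 ± 11.996 TPM), while in PFOS P8-14 Cldn5 (94.2 ± 1.57 TPM) lay above Slc2a1 (90.1 ± 4.33 TPM). In both exposed groups the samples of these genes overlapped, as the plot of levels by library shows.

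**Figure D1:**
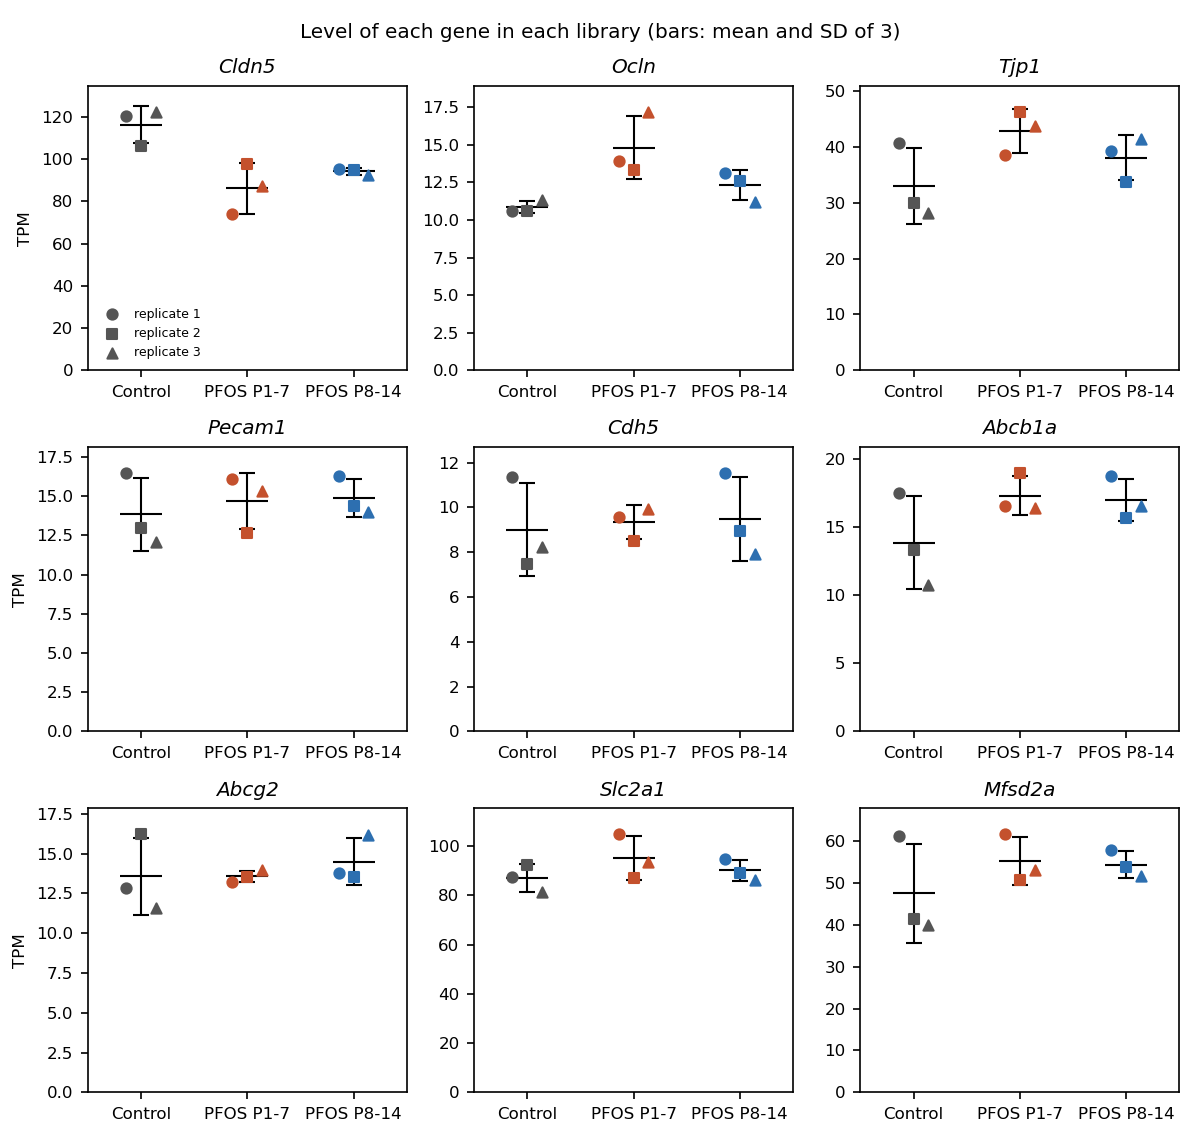
Level in TPM (y axis, from 0) of each of the 9 genes in each library by group (x axis); points are libraries, shaped by replicate, and bars are the mean and SD of 3. Cldn5 lies lower in all 6 exposed libraries (73.8 to 97.8 TPM) than in the 3 controls (106.2 to 122.4 TPM), and Ocln lies higher in the 3 PFOS P1-7 libraries (13.3 to 17.2 TPM) than in the controls (10.6 to 11.35 TPM).

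The first comparison set exposure on days 1 to 7 against control, and both exposed groups are given beside each other below because they share the same 3 controls. Cldn5 encodes claudin-5, the main claudin of brain endothelium. It stood at 120.47, 106.17 and 122.36 TPM in control replicates 1 to 3, at 73.83, 97.77 and 87.16 TPM in PFOS P1-7, and at 95.24, 94.98 and 92.4 TPM in PFOS P8-14. Every exposed sample lay below every control sample, and the PFOS P8-14 samples were packed within PFOS P1-7's range. On the log2(TPM + 1) scale the difference from control was -0.43 in PFOS P1-7 (SE 0.10, 95% interval -0.67 to -0.20) and -0.30 in PFOS P8-14 (SE 0.10, interval -0.53 to -0.07). With Benjamini-Hochberg adjustment over all tested genes, limma gave adjusted p = 0.181 and adjusted p = 0.426, so neither difference passed 0.05. Cldn5 is a gene of 1 exon on chromosome 16 (18776847 to 18778262, + strand, mm10), and its 1416-base transcript is the shortest of the 9. With each library's length trend removed, the differences were -0.34 and -0.23. When control replicate 1 was also left out they were -0.28 and -0.17. Within the 5 Ttr-rich libraries Cldn5 was 122.36 TPM in the control, 73.83 and 87.16 TPM in PFOS P1-7, and 94.98 and 95.24 TPM in PFOS P8-14. Within the other 4 it was 106.17 and 120.47 TPM in controls against 97.77 and 92.4 TPM in the exposed samples, so the controls were higher in both sets.

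Ocln encodes occludin, a membrane-spanning tight junction protein found in endothelia and epithelia. It was 10.6, 10.63 and 11.35 TPM in the controls, 13.91, 13.3 and 17.19 TPM in PFOS P1-7, and 13.11, 12.6 and 11.19 TPM in PFOS P8-14. All PFOS P1-7 samples were above all controls, whereas 1 PFOS P8-14 sample lay inside the control range. The difference from control was 0.41 in PFOS P1-7 (SE 0.12, interval 0.15 to 0.67, adjusted p = 0.198 in limma) and 0.16 in PFOS P8-14 (SE 0.12, interval -0.10 to 0.42, adjusted p = 0.560). Ocln lies on chromosome 13 (100496507 to 100552718, - strand) with 9 exons and a 4052-base transcript. Choroid plexus epithelium also has tight junctions, and its claudin genes moved with Ttr: Cldn2 was 6.3 to 19.0 TPM in the 5 Ttr-rich libraries and 0.36 to 0.52 TPM in the other 4. Within the Ttr-rich libraries Ocln was 11.35 TPM in the control, 13.91 and 17.19 TPM in PFOS P1-7, and 12.6 and 13.11 TPM in PFOS P8-14. Within the other 4 it was 10.6 and 10.63 TPM in controls, 13.3 TPM in PFOS P1-7 and 11.19 TPM in PFOS P8-14. With the choroid plexus level as a covariate the differences from control were 0.33 and 0.09. With the length trend removed they were 0.30 and 0.10, and 0.24 and 0.04 when control replicate 1 was left out as well.

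Tjp1 encodes ZO-1, the scaffold under the tight junction, which many other cell types also make. It was 40.68, 29.87 and 28.14 TPM in the controls, 38.46, 46.21 and 43.73 TPM in PFOS P1-7, and 39.14, 33.61 and 41.37 TPM in PFOS P8-14. Control replicate 1 reached into both exposed groups, and the other 2 controls were the lowest samples of all. The difference was 0.38 in PFOS P1-7 (SE 0.14, interval 0.07 to 0.70, adjusted p = 0.226 in limma) and 0.22 in PFOS P8-14 (interval -0.10 to 0.54, adjusted p = 0.537). Tjp1 (chromosome 7, 65296165 to 65527781, - strand, 28 exons) has the longest transcript of the 9, at 7049 bases. With the length trend removed the differences were 0.16 and 0.05. Without control replicate 1 they were 0.54, which passed (adjusted p = 0.0147 in limma), and 0.38 (adjusted p = 0.0576). In that setting 2658 of the 14336 tested genes passed in PFOS P1-7.

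The 2 adhesion genes that mark endothelium in general differed from control by less than the spread between samples. Pecam1 encodes PECAM-1 (CD31) and stood at 16.48, 12.97 and 12.06 TPM in the controls, 16.06, 12.67 and 15.35 TPM in PFOS P1-7, and 16.28, 14.35 and 13.98 TPM in PFOS P8-14. Cdh5 encodes VE-cadherin and stood at 11.35, 7.45 and 8.21 TPM, 9.59, 8.51 and 9.94 TPM, and 11.54, 8.94 and 7.9 TPM in the same groups. For each gene the 3 groups overlapped. Pecam1 differed from control by 0.09 (interval -0.22 to 0.39) in PFOS P1-7 and by 0.11 (interval -0.20 to 0.41) in PFOS P8-14. Cdh5 differed by 0.07 in both, with intervals of -0.32 to 0.45 in each. The sign in PFOS P1-7 turned under quantile normalization for Pecam1 (-0.02) and under median-of-ratios scaling for Cdh5 (-0.01). The upper ends of these intervals come near or pass the difference of Ocln. Pecam1 lies on chromosome 11 (106654217 to 106750628, - strand) and Cdh5 on chromosome 8 (104101625 to 104144511, + strand).

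Among the transporters, Abcb1a differed most from control. It encodes P-glycoprotein, an efflux pump on the blood side of the capillary wall. Some reads can be shared with its paralog Abcb1b, so its level is uncertain to that extent. Abcb1b was 2.20 ± 0.610, 2.47 ± 0.214 and 2.71 ± 0.166 TPM in control, PFOS P1-7 and PFOS P8-14. Abcb1a stood at 17.46, 13.3 and 10.7 TPM in the controls, 16.53, 18.95 and 16.39 TPM in PFOS P1-7, and 18.69, 15.67 and 16.51 TPM in PFOS P8-14. The exposed samples filled 15.67 to 18.95 TPM, and control replicate 1 lay among them. The differences were 0.33 (SE 0.16, interval -0.03 to 0.68, adjusted p = 0.298 in limma) and 0.30 (SE 0.16, interval -0.05 to 0.65, adjusted p = 0.478). They were 0.17 and 0.14 without control replicate 3, and 0.50 and 0.47 without control replicate 1, where both passed (adjusted p = 0.0282 and 0.0439). With the length trend removed they were 0.17 and 0.19. Without control replicate 1, 2658 of the 14336 tested genes passed in PFOS P1-7 and 1741 in PFOS P8-14. Abcb1a lies on chromosome 5 (8660077 to 8748575, + strand, 28 exons, 4997-base transcript).

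Mfsd2a encodes a carrier of lysophosphatidylcholine-bound docosahexaenoic acid that also restrains transcytosis across the endothelium. It was 61.13, 41.33 and 39.89 TPM in the controls, 61.66, 50.65 and 53.12 TPM in PFOS P1-7, and 57.73, 53.66 and 51.56 TPM in PFOS P8-14. As with Abcb1a, control replicates 2 and 3 were the lowest samples and control replicate 1 lay at the exposed level. The differences of 0.23 (SE 0.15, adjusted p = 0.408 in limma) and 0.22 (SE 0.15, adjusted p = 0.552) became 0.43 and 0.41 without control replicate 1 (adjusted p = 0.0196 and 0.0304). They were 0.13 and 0.11 without control replicate 3, and 0.15 and 0.13 without control replicate 2. As given for Abcb1a, 2658 and 1741 of the 14336 tested genes passed without control replicate 1. Mfsd2a lies on chromosome 4 (122946850 to 122961188, - strand, 14 exons, 2151-base transcript).

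Slc2a1 encodes GLUT1, the glucose carrier of the barrier and also of glia. It was 87.29, 92.4 and 81.3 TPM in the controls, 104.93, 87 and 93.39 TPM in PFOS P1-7, and 94.87, 89.13 and 86.38 TPM in PFOS P8-14, with overlap among all groups. Its difference was 0.12 in PFOS P1-7 (interval -0.07 to 0.32) and 0.05 in PFOS P8-14 (interval -0.14 to 0.25), the latter -0.01 under median-of-ratios scaling. Across all 9 libraries its highest value was 1.29 times its lowest, the narrowest range of the 9 genes, against 1.66 for Cldn5 and 1.77 for Abcb1a. Abcg2 encodes the efflux pump BCRP. It was 12.86, 16.24 and 11.59 TPM in the controls, 13.21, 13.56 and 13.94 TPM in PFOS P1-7, and 13.8, 13.52 and 16.17 TPM in PFOS P8-14. All PFOS P1-7 samples lay inside the control range, and the differences were 0.01 (interval -0.27 to 0.30) and 0.10 (interval -0.19 to 0.39). Median-of-ratios scaling gave -0.065 for the first, and removal of the length trend gave -0.17 and -0.03. Slc2a1 lies on chromosome 4 (119108711 to 119137983, + strand) and Abcg2 on chromosome 6 (58584523 to 58695676, + strand).

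**Figure D2:**
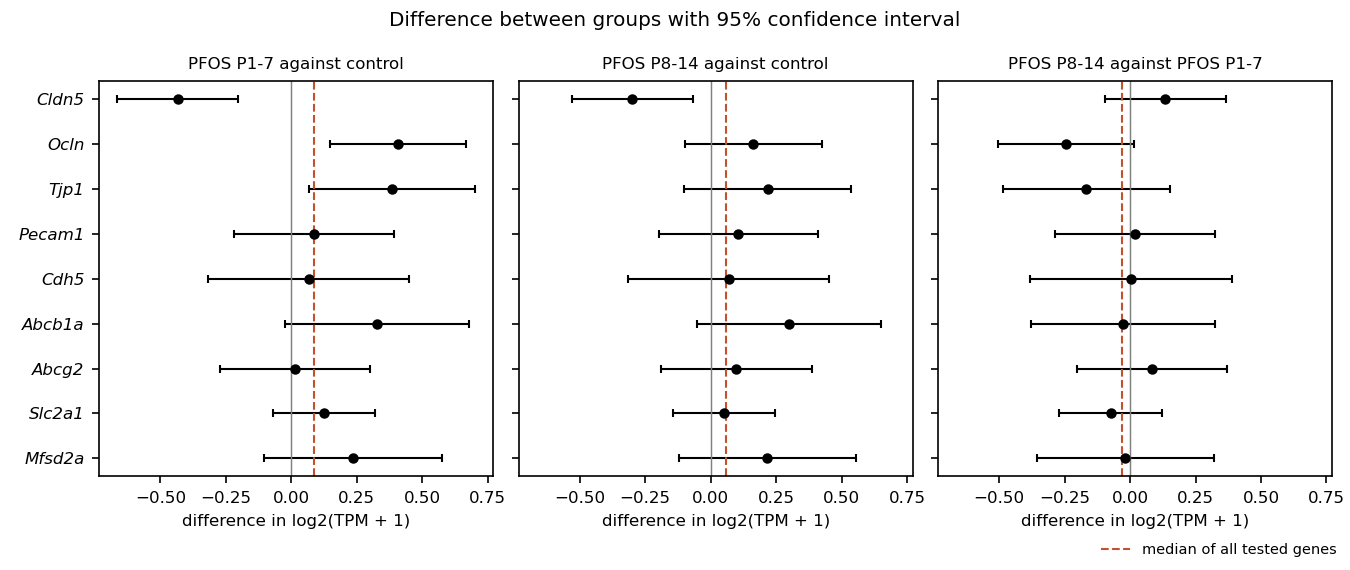
Difference in log2(TPM + 1) (x axis) of each gene (y axis) in the 3 comparisons; points are limma estimates, bars the 95% confidence intervals, and the dashed line the median of all tested genes. In PFOS P1-7 against control the interval of Cldn5 (-0.67 to -0.20) lies below 0 and those of Ocln (0.15 to 0.67) and Tjp1 (0.07 to 0.70) lie above 0.

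Over the 9 genes, 8 were higher and 1 lower than control in each exposed group, with median differences of 0.12 in PFOS P1-7 and 0.11 in PFOS P8-14. All tested genes had medians of 0.09 and 0.06, with 65.5% and 62.1% of genes higher, so the upward lean of the list lay near that of the whole table. No member passed the adjusted threshold in either comparison, and neither did any other gene (0% of 14336 by limma in each, with 2627 and 1573 genes at an unadjusted p under 0.05). Without control replicate 1 the same fit called 2658 and 1741 genes. In PFOS P1-7, 2 members were higher at an unadjusted p under 0.05 (background 12.5% of tested genes) and 1 was lower (background 5.79%). Also, 1 member lay wholly above the controls (background 12.3%) and 1 wholly below (background 6.56%). In PFOS P8-14 no member was higher at that p (background 6.33%) and 1 was lower (background 4.65%), no member lay wholly above the controls (background 7.31%) and 1 wholly below (background 5.99%). With 9 genes, shares this close to the background are not a result about the list. Downward, the single member in each case was Cldn5. In the test of any difference among the 3 groups (moderated F test in limma), Cldn5 had adjusted p = 0.362 and Ocln adjusted p = 0.420.

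The windows were compared directly as PFOS P8-14 against PFOS P1-7. No member passed (0% of all tested genes, smallest adjusted p = 0.9998 in limma, with 158 genes at an unadjusted p under 0.05). Ocln was lower in PFOS P8-14, at 12.3 ± 0.995 TPM against 14.8 ± 2.09 TPM, and the groups did not overlap, with a difference of -0.24 (SE 0.12, interval -0.50 to 0.02). Cldn5 differed by 0.13 (interval -0.10 to 0.37) and Tjp1 by -0.17 (interval -0.49 to 0.15), and both overlapped. The other 6 members ranged from -0.07 for Slc2a1 to 0.09 for Abcg2. At an unadjusted p under 0.05 there were no members in either direction (background 0.467% higher and 0.635% lower). Groups without overlap were 0 members higher (background 1.9%) and 1 lower (background 4.15%). The median of the 9 genes was -0.02, against -0.03 for all tested genes.

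To set each gene beside other endothelial genes of its own library, a reference of 30 endothelial identity genes was used (among them Kdr, Flt1, Tie1, Erg and Sox17). Their mean log2(TPM + 1) was subtracted from the member's. Whether other cell types, or the vessels of choroid plexus, also contribute to this reference was not tested. Pltp, one of the 30, ran from 88.8 to 143.3 TPM within PFOS P1-7. The summed TPM of these 30 genes was 732.2 to 765.7 in controls, 691.4 to 776.6 in PFOS P1-7 and 670.4 to 744.3 in PFOS P8-14, so the groups overlapped. Cldn5 stood 3.17 ± 0.10 log2 units above this mean in controls, 2.75 ± 0.20 in PFOS P1-7 and 2.88 ± 0.08 in PFOS P8-14 (SD, n = 3). Ocln stood at -0.14 ± 0.15, 0.29 ± 0.11 and 0.04 ± 0.05, so that its 3 groups did not overlap in any pair. Of the 27 differences (9 genes by 3 pairs of groups), 7 were without overlap. These were Cldn5 in both exposed groups against control (-0.41 and -0.29), Ocln in all 3 pairs (0.43, 0.17 and -0.25), Tjp1 in PFOS P1-7 (0.40) and Abcb1a in PFOS P8-14 (0.31). For each of the 7 the two-sided exact permutation test gave p = 0.1, the smallest that 3 against 3 allows, and an adjusted p of 0.386 over the 27. In PFOS P1-7, 2 members lay above and 1 below the controls on this scale, where 17.2% and 2.31% of the 14306 tested genes outside the reference list did so. In PFOS P8-14 it was again 2 above and 1 below (background 11.8% and 2.47%). Between the windows none was higher and 1 lower (background 0.986% and 3.29%). The reference mattered: against Kdr, Flt1 and Tie1 alone, none of the 27 was without overlap, with Cldn5 at -0.57 and -0.40. Without control replicate 1 there were 14, and without control replicate 2 there were 11.

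**Figure D3:**
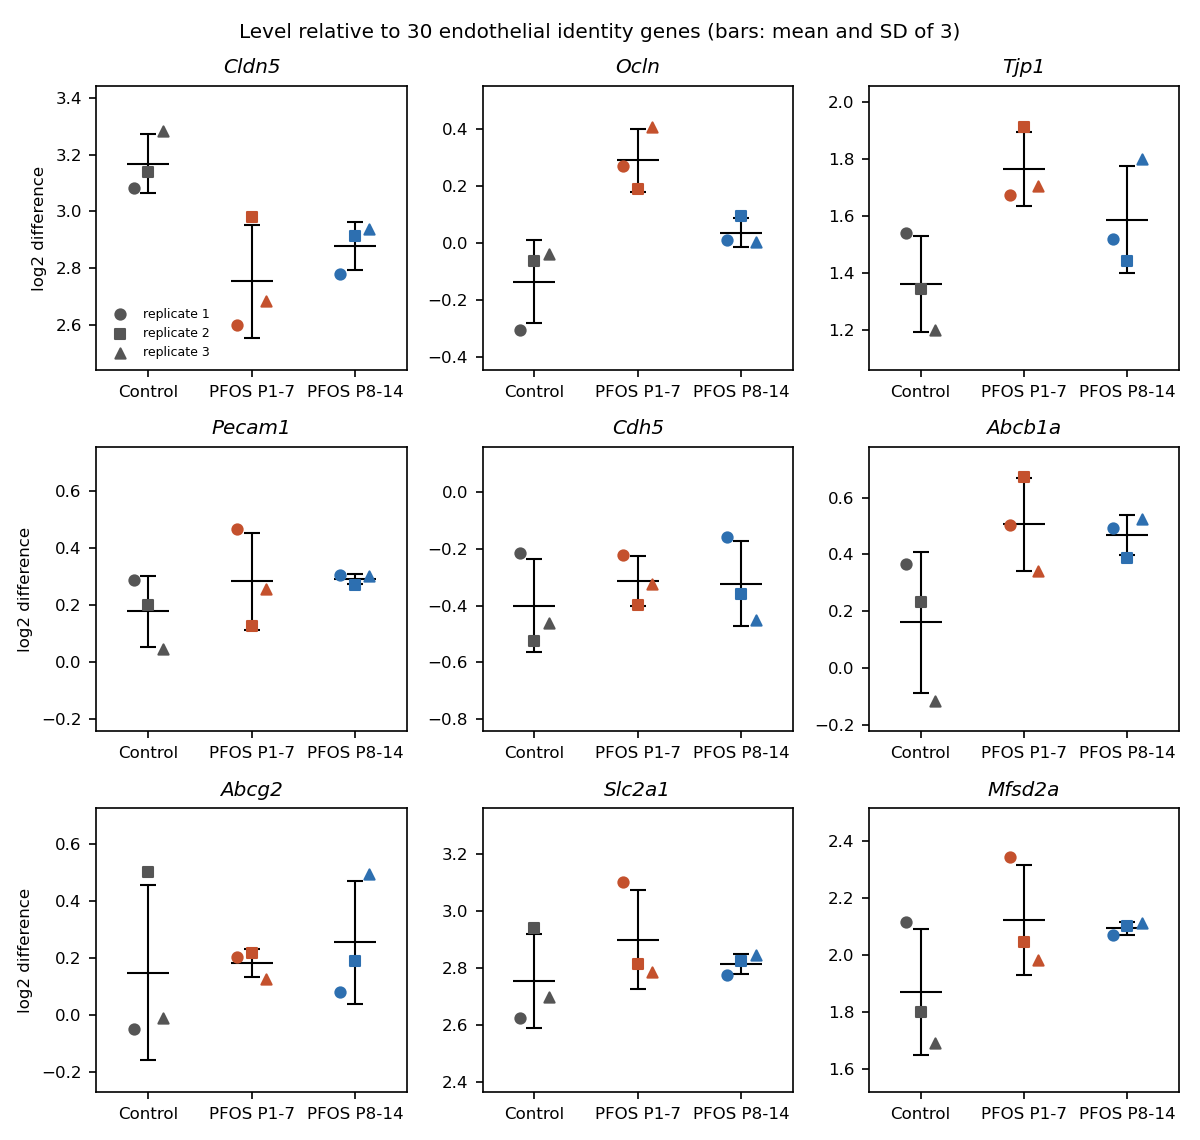
Level of each gene minus the mean of 30 endothelial identity genes in log2 units (y axis, spanning 1 unit in every panel) by group (x axis); points are libraries and bars the mean and SD of 3. The exposed samples of Cldn5 lie below the controls, and the 3 groups of Ocln lie apart with PFOS P1-7 highest.

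Other genes of the junction and of barrier transport, 41 tested genes in 2 lists, were read beside the members. Of 19 other junction genes, 17 were higher than control in PFOS P1-7 (median 0.17) and 16 in PFOS P8-14 (median 0.15). At an unadjusted p under 0.05, 2 were higher in PFOS P1-7 (background 12.5% of tested genes) and none in PFOS P8-14 (background 6.33%). None was lower in either (background 5.79% and 4.65%). Among all tested genes, 65.5% and 62.1% were higher than control in the 2 exposed groups. Ctnnd1, the p120-catenin that stabilises cadherins, was 31.1 ± 6.54, 38.1 ± 1.496 and 35.6 ± 2.10 TPM in control, PFOS P1-7 and PFOS P8-14 (0.31 in PFOS P1-7, adjusted p = 0.255 in limma). Cldn12, another claudin, was 20.4 ± 1.26, 23.1 ± 0.905 and 21.5 ± 2.02 TPM, and it is named here after its values were seen, for comparison with Cldn5. The list had no member that, like Cldn5, lay wholly below the controls (background 6.56% in PFOS P1-7 and 5.99% in PFOS P8-14).

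Of 22 other transporter and receptor genes of the barrier, 18 were higher than control in each exposed group (medians 0.15 and 0.13). In PFOS P1-7, 4 were higher (background 12.5%) and 1 lower (background 5.79%) at an unadjusted p under 0.05. In PFOS P8-14, 3 were higher (background 6.33%) and none lower (background 4.65%). Slc6a6, the taurine transporter, was 67.6 ± 8.23 TPM in control, 89.1 ± 3.98 TPM in PFOS P1-7 and 90.6 ± 6.54 TPM in PFOS P8-14 (0.40 and 0.42, adjusted p = 0.181 and 0.424 in limma), without overlap with control in either. The efflux pumps Abcc4 (4.75 ± 0.993, 7.14 ± 1.06 and 7.00 ± 0.742 TPM) and Abcc1 (10.4 ± 1.63, 13.1 ± 1.18 and 13.0 ± 1.23 TPM) were also above the controls in all 6 exposed samples. In this list, 6 genes lay wholly above the controls in PFOS P1-7 (background 12.3%) and 3 in PFOS P8-14 (background 7.31%). Slc38a5, a glutamine carrier, was lower in PFOS P1-7 (5.83 ± 0.687 TPM) than in control (8.52 ± 1.06 TPM) and in PFOS P8-14 (8.27 ± 1.12 TPM). Its difference between the windows was 0.44 (SE 0.14, adjusted p = 0.9998 in limma). Several of these genes are also made by neurons or glia, so they are not readings of endothelium alone.

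The 30 endothelial identity genes did not share the upward lean: 11 were higher in PFOS P1-7 (median -0.05) and 15 in PFOS P8-14 (median -0.01), below the medians of all tested genes. In PFOS P1-7, 2 were lower at an unadjusted p under 0.05 (background 5.79%). These were Egfl7, a secreted angiogenic factor (54.2 ± 2.02 TPM in control, 44.2 ± 0.537 TPM in PFOS P1-7 and 49.0 ± 4.19 TPM in PFOS P8-14), and Itm2a (85.9 ± 4.56, 71.2 ± 5.89 and 74.8 ± 6.62 TPM). Their differences in PFOS P1-7 were -0.29 and -0.27 (adjusted p = 0.188 and 0.217 in limma), smaller in size than that of Cldn5. Mmrn2 was higher in PFOS P8-14 (2.62 ± 0.286 TPM) than in PFOS P1-7 (1.72 ± 0.458 TPM).

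Wnt signalling from neural cells to endothelium builds and maintains the barrier and supports the expression of Cldn5 and Slc2a1, and 18 genes of it were tested. Of these 13 and 12 were higher than control in PFOS P1-7 and PFOS P8-14 (medians 0.14 and 0.12). Without PFOS P8-14 replicate 1 the PFOS P8-14 median was -0.008. At an unadjusted p under 0.05, 4 were higher (background 12.5%) and 3 lower (background 5.79%) in PFOS P1-7. In PFOS P8-14, 3 were higher (background 6.33%) and 1 lower (background 4.65%). The 3 lower genes in PFOS P1-7 were all ligands. Ndp (norrin) was 11.9 ± 0.367 TPM in control, 9.15 ± 1.49 TPM in PFOS P1-7 and 8.997 ± 1.93 TPM in PFOS P8-14, lower without overlap in both. Wnt7a (15.4 ± 1.58, 11.7 ± 2.74 and 12.04 ± 1.27 TPM) and Wnt7b (26.9 ± 4.08, 21.6 ± 1.83 and 22.2 ± 1.64 TPM) are named here after their values were seen. The co-receptors Lrp6 (14.5 ± 2.29, 19.0 ± 0.853 and 18.6 ± 1.61 TPM) and Lrp5 (5.40 ± 1.55, 8.93 ± 1.67 and 8.43 ± 2.77 TPM) were higher. Reck, which presents Wnt7 ligands to the receptor, was 6.28 ± 0.775, 8.57 ± 1.64 and 8.63 ± 1.08 TPM. None of these passed against control after adjustment (adjusted p from 0.2099 to 0.465 in limma).

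Genes of caveolae and permeability, leukocyte adhesion and the vessel's neighbours had list medians between -0.15 and 0.22. Of 10 caveolar and permeability genes, 8 and 6 were higher than control in the exposed groups (medians 0.09 and 0.03). Cavin3, a caveolar coat protein listed in the table under its older symbol Prkcdbp, was lower, at 32.0 ± 1.66 TPM in control, 25.7 ± 2.65 TPM in PFOS P1-7 and 27.1 ± 2.84 TPM in PFOS P8-14. Plvap, of the same list and named after its values were seen, moved with Ttr. It was 12.66 to 16.76 TPM in the 5 Ttr-rich libraries and 5.37 to 7.94 TPM in the other 4. Of 7 leukocyte adhesion genes, 5 were tested (medians -0.15 and 0.03). Ackr1, a chemokine-binding receptor of venules listed as Darc, was 83.9 ± 11.6, 61.2 ± 1.03 and 70.8 ± 5.76 TPM (-0.44 in PFOS P1-7, adjusted p = 0.181 in limma), and Icam2 was 6.87 ± 0.886, 5.15 ± 1.19 and 4.36 ± 0.511 TPM. The Ackr1 level is high for hippocampus, and Vwf in the same list stood at 8.72 ± 3.45 TPM in control. Overlap of Ackr1 with a neighbouring gene could not be checked, so its values may not read venules alone. Of 13 mural cell genes, 8 were higher in each exposed group (medians 0.13 and 0.005). The pericyte gene Higd1b was 9.62 ± 1.71, 6.33 ± 2.70 and 5.70 ± 0.496 TPM, and the smooth muscle gene Acta2 was 10.4 ± 4.21, 12.04 ± 2.65 and 15.3 ± 2.15 TPM. Of 10 astrocyte endfoot genes, 6 and 4 were higher (medians 0.06 and -0.03). With the length trend removed the PFOS P1-7 medians were -0.06 for mural and -0.05 for endfoot genes. Over the alternatives the leukocyte adhesion median in PFOS P8-14 ran from -0.10 to 0.12. Of 12 basement membrane genes, 10 and 12 were higher (medians 0.19 and 0.22), Lamb1 among them at 19.4 ± 4.85, 24.9 ± 1.72 and 25.9 ± 2.97 TPM.

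**Figure D4:**
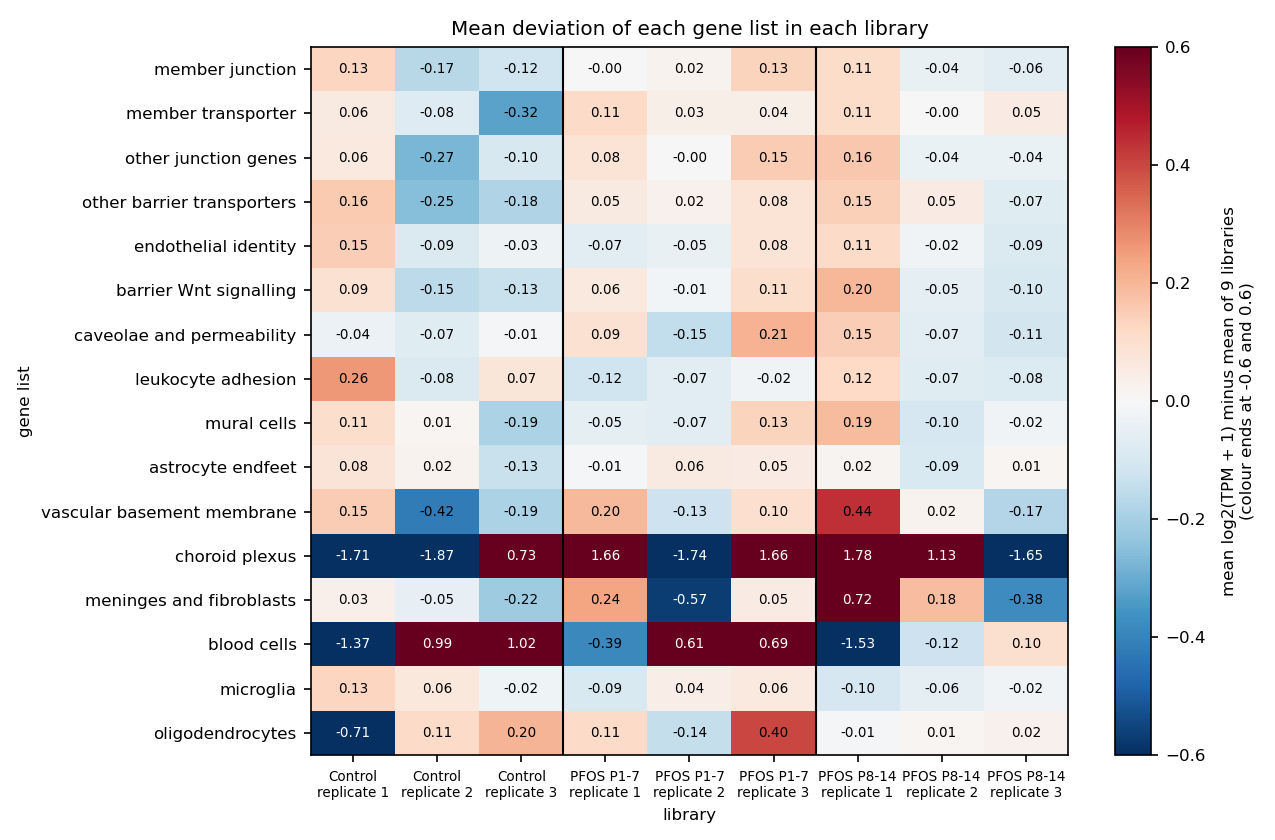
Mean deviation of each gene list (rows) in each library (columns) from its mean over the 9 libraries, in log2 units; red is higher, blue lower, and colour ends at -0.6 and 0.6. Control replicate 1 stands above control replicates 2 and 3 for both rows of members, and the choroid plexus row separates 5 libraries from 4.

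Markers of other cell types that the dissected tissue could hold were read in every library. The 18 choroid plexus genes were all higher than control in both exposed groups (medians 1.45 and 1.36), none at an unadjusted p under 0.05, with summed TPM of 212.7 to 11176 in controls, 229.3 to 13170 in PFOS P1-7 and 325.9 to 11297 in PFOS P8-14. None of the 18 was at 0 in any library, and by control level they ran from F5 (0.93 ± 1.10 TPM) to Ttr (3503 ± 5991 TPM). The 10 meningeal and fibroblast genes had medians of -0.0008 and 0.30, with summed TPM of 129.0 to 225.7, 83.4 to 284.7 and 95.5 to 319.0, and ran from Slc22a6 (1.63 ± 0.214 TPM in control) to Igfbp2 (81.0 ± 74.0 TPM). This sum also split by Ttr, at 225.7 to 319.0 in the 5 Ttr-rich libraries and 83.4 to 159.9 in the other 4. Of 8 blood cell genes, 5 were tested (medians -0.11 and -0.73). Hbb-bs, a haemoglobin gene listed as Beta-s, was 1709 ± 324, 1289 ± 388 and 1020 ± 63.4 TPM, and Alas2 was 12.6 ± 1.97, 11.6 ± 2.27 and 7.88 ± 2.40 TPM. Of the 5 blood genes, 4 were lower and 1 higher than control in PFOS P8-14, where 2 lay wholly below the controls (background 5.99%). In PFOS P1-7, 3 were lower and 2 higher. Control replicate 1 had a blood mean of -1.37 log2 units against the average, beside Cldn5 at 120.47 TPM. The part of blood genes in the difference of Cldn5 was not tested.

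Of 10 microglial genes, 4 were higher and 6 lower than control in PFOS P1-7, and 5 higher and 5 lower in PFOS P8-14 (medians -0.09 and -0.05). At an unadjusted p under 0.05, 1 was higher (background 12.5%) and 4 lower (background 5.79%) in PFOS P1-7. In PFOS P8-14 none was higher (background 6.33%) and 4 were lower (background 4.65%). The genes named here are among the lower ones. Of the 10 genes, 3 lay wholly below the controls in PFOS P1-7 (background 6.56%) and 4 in PFOS P8-14 (background 5.99%). The complement genes C1qb (97.9 ± 9.47, 74.4 ± 5.53 and 72.4 ± 3.05 TPM) and C1qa (98.8 ± 7.19, 79.0 ± 0.506 and 80.4 ± 3.66 TPM) lay wholly below the controls in both exposed groups. C1qb differed by -0.39 and -0.43 (adjusted p = 0.181 and 0.424 in limma). Trem2 was 28.7 ± 4.07, 22.0 ± 3.85 and 25.3 ± 1.05 TPM, and Aif1 was 14.4 ± 2.77, 12.8 ± 1.64 and 9.79 ± 2.12 TPM. The microglial median in PFOS P1-7 was 0.03 with the length trend removed and 0.004 without control replicate 2, so its sign was not stable. In PFOS P8-14 it ran from -0.11 to -0.005 over the alternatives. The 10 oligodendrocyte genes were all higher in both exposed groups (medians 0.25 and 0.13), with none at an unadjusted p under 0.05, and ran from Ermn (34.3 ± 15.0 TPM in control) to Mbp (7105 ± 1469 TPM). Their part in the members' differences was not tested. Control replicate 1 had the lowest oligodendrocyte mean of the 9 libraries, -0.71 log2 units against the average. With 1 sample left out, the oligodendrocyte median ran from -0.03 to 0.43 in PFOS P1-7. In PFOS P8-14 it ran from -0.19 to 0.29, so the sign was not stable in either group.

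Across the 9 libraries the members did not form 1 block. The closest pairs by Pearson's r of log2(TPM + 1) were Pecam1 with Mfsd2a (0.89), Tjp1 with Abcb1a (0.88) and Pecam1 with Cdh5 (0.85), while Cldn5 ran opposite to Slc2a1 (-0.80) and Ocln (-0.67). These are descriptions over 9 samples that include the groups' own differences and the shared length trend. In the whole table the 3 genes most like Cldn5 were H2afx (0.94), Ndrg2 (0.92) and Mcmdc2 (0.92). Those most like Pecam1 were Lhfp (0.97), Whamm (0.95) and Timeless (0.95), and those most like Cdh5 were Edn3 (0.96), Psen2 (0.96) and Nid1 (0.95). Of the 50 genes most like each member, 1 was in the endothelial identity list for Cdh5 and none for any of the other 8. The median r with the 30 identity genes was 0.46 for Cdh5, 0.36 for Pecam1, 0.17 for Cldn5 and -0.27 for Abcg2.

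The plot of alternatives gives each member's difference from control under every processing choice tried. Cldn5 was below control in all of them, from -0.53 to -0.28 in PFOS P1-7 and from -0.36 to -0.17 in PFOS P8-14. It passed in PFOS P1-7 with array weights (adjusted p = 0.0240 in limma) and without control replicate 1 (adjusted p = 0.0383), with adjusted p otherwise up to 0.503. With array weights 2914 of the 14336 tested genes passed in PFOS P1-7, and 2658 did without control replicate 1. Ocln was above control in all of them, from 0.24 to 0.47 in PFOS P1-7 and from 0.04 to 0.22 in PFOS P8-14, and it passed in PFOS P1-7 with array weights (adjusted p = 0.0269). Tjp1, Abcb1a and Mfsd2a also passed in PFOS P1-7 with array weights (adjusted p = 0.0168, 0.0354 and 0.0365 in limma). These calls were thus not particular to Cldn5 and Ocln.

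**Figure D5:**
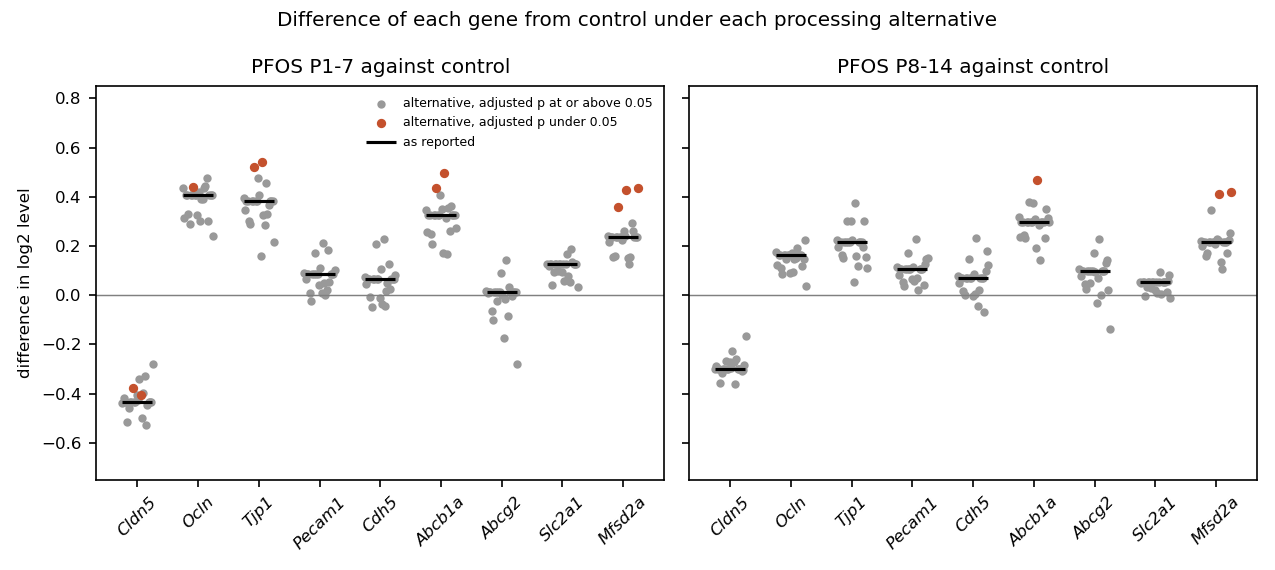
Difference of each gene (x axis) from control in log2 units (y axis) under each of 24 processing alternatives; grey points have an adjusted p at or above 0.05, red points below it, and black bars are the values as reported. Cldn5 stays below 0 and Ocln and Tjp1 stay above 0 in both comparisons, while Cdh5 and Abcg2 lie on both sides of 0.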

How the data were processed

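The authors deposited a single table in which the 9 samples are columns and gene symbols are rows, in TPM. Every column has the same total, so depth is not kept, no counting interval can be given, and precision comes from the replicates alone (median standard error 0.13 log2 units). The submitters' processing notes name bcl2fastq, fastp 0.21.0, STAR 2.5.3a, RSEM 1.3.3 and build mm10. Per the labels' protocols, total RNA was used for stranded poly(A) libraries (TruSeq stranded mRNA). The gene annotation is not given in the sources used here.

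From these values, log2(TPM + 1) was fitted with limma 3.58.1 in R 4.3.3: 1 mean per group over all 9 samples, moderated variances with a trend, two-sided, and Benjamini-Hochberg adjustment over 14336 symbols with at least 1 TPM in at least 3 samples. A gene's level relative to 30 endothelial identity genes was compared by exact permutation. Of 198 entries in 14 lists, 196 were found, 10 through older symbols from RefSeq. Some genes are in 2 lists: Esam in the junction and endothelial identity lists, and Ctnnb1 in the junction and Wnt lists. Lengths (93.9% of tested genes) and positions are from GENCODE, promoters from RefSeq. The method was tested on simulated data, and figures were drawn with matplotlib 3.10.9.

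The members and lists were chosen with earlier results of these data known. All 9 members were named. From each other list the genes named are those with an unadjusted p under 0.05, at most 3 per comparison. Of these, 2 are not reported here. For lists with none, the lowest and highest by control level are named. Ttr was read in every sample, and for Cldn5, Pecam1 and Cdh5 the 3 most similar genes by Pearson's r are named. Alternatives varied pseudocount, filter, scaling, block, samples, weights, moderation, covariates and length trend, and left out each sample.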

Additional observations from a re-analysis of the deposited data

How the results depend on the processing

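The count of genes passing the threshold was the result that depended most on the processing. It was 0 in each comparison and in the test of any group difference. With array weights it was 2914 in PFOS P1-7, 1053 in PFOS P8-14 and 1532 for any difference. Leaving out 1 sample at a time gave 0 to 2658 for PFOS P1-7, 0 to 1741 for PFOS P8-14, 0 for the windows and 0 to 1493 for any difference. The highest values came without control replicate 1, and 1 gene passed in PFOS P1-7 without PFOS P8-14 replicate 1. With the length trend removed and control replicate 1 left out, an alternative chosen after seeing the data, the counts were 911, 665 and 422. The cause was not tested. Medians of the 9 members kept their sign against control, at 0.053 to 0.23 and 0.019 to 0.23 with 1 sample left out. The split of unadjusted calls moved with scaling. In PFOS P1-7 it was 1797 higher and 830 lower, and 1031 and 1417 with median-of-ratios scaling, 1043 and 1329 with quantile normalization, and 942 and 1030 with the length trend removed. In PFOS P8-14 it was 907 and 666, then 605 and 1004, 654 and 986, and 674 and 795. Between the windows it was 67 and 91, then 107 and 70, 108 and 65, and 98 and 91. The replicate block left 0 genes in each comparison. Same-numbered samples deviated together in some pairs and apart in others (r from -0.47 to 0.53), so the numbers were not taken to pair the samples, and whether they mark a shared source is not known. Under it Cldn5 had adjusted p = 0.135 and 0.294 in limma.

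Signs turned for differences near 0, and for none of Cldn5, Ocln or Tjp1 in any alternative. With median-of-ratios scaling they turned for Cdh5 and Abcg2 in PFOS P1-7 (-0.0086 and -0.065), Slc2a1 in PFOS P8-14 (-0.0054) and Mfsd2a between the windows (0.0075). With quantile normalization they turned for Pecam1, Cdh5 and Abcg2 in PFOS P1-7 (-0.024, -0.046 and -0.10) and for Abcb1a and Mfsd2a between the windows (0.024 and 0.013). Array weights turned Abcg2 in PFOS P1-7 (-0.025) and Pecam1 and Cdh5 between the windows (-0.0038 and -0.057). The choroid plexus covariate turned Cdh5 in both (-0.013 and -0.0036), and the endothelial covariate Cdh5 between the windows (-0.020). Removing the length trend turned Cdh5 and Abcg2 in PFOS P1-7 (-0.038 and -0.17), Abcg2 in PFOS P8-14 (-0.031) and Abcb1a between the windows (0.024). With control replicate 1 also left out these were Abcg2 in both (-0.28 and -0.14), Slc2a1 in PFOS P8-14 (-0.013) and Abcb1a between the windows (0.024). Leaving out 1 sample at a time gave the following ranges. In PFOS P1-7, Abcg2 ran from -0.086 to 0.14, Cdh5 from -0.046 to 0.23 and Pecam1 from -0.00038 to 0.21. In PFOS P8-14, Cdh5 ran from -0.069 to 0.23 and Abcg2 from -0.00050 to 0.23. Between the windows, Mfsd2a ran from -0.076 to 0.064, Pecam1 from -0.076 to 0.083, Cdh5 from -0.14 to 0.11 and Abcb1a from -0.095 to 0.037.

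Relative to the endothelial identity genes, the number of differences without overlap was 7 as reported, 7 to 14 with 1 sample left out, and 0 against Kdr, Flt1 and Tie1. Against these 3 genes, signs turned in PFOS P1-7 for Pecam1 (-0.050), Cdh5 (-0.071), Abcg2 (-0.12) and Slc2a1 (-0.011), and in PFOS P8-14 for Cdh5 (-0.031), Abcg2 (-0.0019) and Slc2a1 (-0.049). Between the windows they turned for Cdh5 (0.039), Abcb1a (0.0089) and Mfsd2a (0.018), and with log2(TPM + 0.1) for Pecam1 (-0.0024). With 1 sample left out, Abcg2 ran from -0.065 to 0.21 in PFOS P1-7 and from -0.014 to 0.28 in PFOS P8-14, where Slc2a1 ran from -0.0057 to 0.15 and Cdh5 from -0.0046 to 0.17. Between the windows the ranges were -0.090 to 0.056 for Cdh5, -0.14 to 0.016 for Slc2a1, -0.10 to 0.081 for Mfsd2a, -0.070 to 0.10 for Pecam1, -0.12 to 0.044 for Abcb1a and -0.047 to 0.16 for Abcg2.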

Other observations

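The TPM ratio of Cldn5 to Ocln, a description chosen after the values were seen, was 11.4, 9.99 and 10.8 in controls. It was 5.31, 7.35 and 5.07 in PFOS P1-7 and 7.26, 7.54 and 8.26 in PFOS P8-14. All exposed samples lay below the controls, and the range of PFOS P1-7 reached into that of PFOS P8-14. Since Cldn5 and Ocln had already been seen to differ in opposite directions, no test is given.

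The spread within a group differed between members. In PFOS P8-14 the coefficient of variation of Cldn5 was 1.67%, against 7.61% in controls and 13.9% in PFOS P1-7. Mfsd2a, Abcb1a and Cdh5 varied by 25.01%, 24.7% and 23.0% in controls, where replicate 1 was the highest of the 3, against 10.5%, 8.32% and 7.98% in PFOS P1-7 and 5.78%, 9.19% and 19.8% in PFOS P8-14. Control replicate 3 was the lowest of the 9 libraries for 6 members, namely Tjp1, Pecam1, Abcb1a, Abcg2, Slc2a1 and Mfsd2a, and the highest for Cldn5.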
